A study of Mus musculus with 4 samples.

Results

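Growth factor receptor tyrosine kinases are described here in mouse cultures enriched for oligodendrocytes, with and without a conditional knockout of the palmitoyltransferase gene Zdhhc5. The set held 10 genes taken by symbol: Pdgfra, Pdgfrb, Fgfr1, Fgfr2, Fgfr3, Erbb2, Erbb3, Erbb4, Igf1r and Egfr. Of these, 7 were found among the 6940 genes of the deposited table, and Fgfr2, Erbb3 and Igf1r were not analysed here. The table holds genes that the authors called different between the genotypes, so a receptor that is listed had already been called. Listing reached 7 of 10 receptors, where 40.0% of the 17347 genes behind the authors' adjustment were listed, 18.7% as higher in the knockout cells and 21.3% as lower.

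These receptors cross the cell membrane once, bind a growth factor outside the cell and carry a tyrosine kinase inside it. Ligand binding joins receptors into pairs, which phosphorylate each other and recruit adaptors that lead to the RAS-ERK and PI3K-AKT pathways. In the oligodendrocyte lineage, PDGF acting through Pdgfra drives the division of precursors, FGF receptors and ERBB receptors act at several stages, and Pdgfra is lost as cells mature.

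Messenger RNA was sequenced in 4 libraries, 2 per genotype, from C57BL/6 mice. Cells from the cortex at postnatal day 5 were enriched by immunopanning against GalC and then O4, expanded for 6 days and kept for 24 h in medium with 40 ng/mL triiodothyronine, which promotes differentiation. All cells carried floxed Zdhhc5 (Zdhhc5fl/fl). The conditional knockout (cKO) cells also had Cre at 1 copy of the Olig1 locus (Olig1cre/+;Zdhhc5fl/fl) and the controls had no Cre, so Cre, the altered Olig1 locus and the loss of Zdhhc5 cannot be told apart. The labels do not state whether replicate libraries derive from different animals or cultures, and p-values measure only the spread between these libraries, which may be technical. Zdhhc5 itself was not analysed here, so the genotype labels were not checked by its level.

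Values below are normalised reads, that is, each count over the size factor of its library, given for control 1, control 2, cKO 1 and cKO 2 or as mean ± SD (n = 2). The listed genes held from 13672254 to 20068016 recovered reads per library. Replicates differed by more than sampling noise (chi-square per degree of freedom 2.31 between the controls and 3.24 between the cKO libraries). Of 12 precursor markers 10 were listed, where 40.0% of all genes were. Their sums were 89350 to 89832 normalised reads in the controls and 55466 to 57530 in the cKO libraries. Myelin markers (9 of 12 listed) had sums of 323489 to 324090 and of 65054 to 67318, and astrocyte markers (11 of 12 listed) 521976 to 522709 and 776133 to 784432. Astrocyte marker sums were above the myelin and precursor sums in every library, so the cultures were mixed. The words cKO cells stand for all cells of these cultures. No listed marker was at 0 in any library. In bulk RNA, fewer cells of a type and less RNA per cell cannot be told apart.

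The receptors split in direction. Pdgfra and Erbb4 were lower in the cKO cells, by 1.82-fold and 2.08-fold. Pdgfrb, Fgfr1, Egfr, Erbb2 and Fgfr3 were higher, by 2.31-fold, 1.70-fold, 1.48-fold, 1.40-fold and 1.25-fold. All 7 passed at an adjusted p under 0.05 in limma, 5 higher and 2 lower, which is no support of its own, since 100% of the listed genes passed, 46.7% higher and 53.3% lower. Fold changes moved with the GC content of the transcript across the listed genes, and the trend was fitted on these alone. Values from fits without that trend are called GC-adjusted, and values from fits without trends in GC content and length GC-length-adjusted. The GC-adjusted rise of Erbb2 was no longer called and that of Fgfr3 turned. Control and cKO values did not overlap for any of the 7, as was so for 100% of the listed genes to 3 digits (6939 of 6940). An exact permutation test of 2 against 2 libraries cannot give a p below 0.333.

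**Figure D1:**
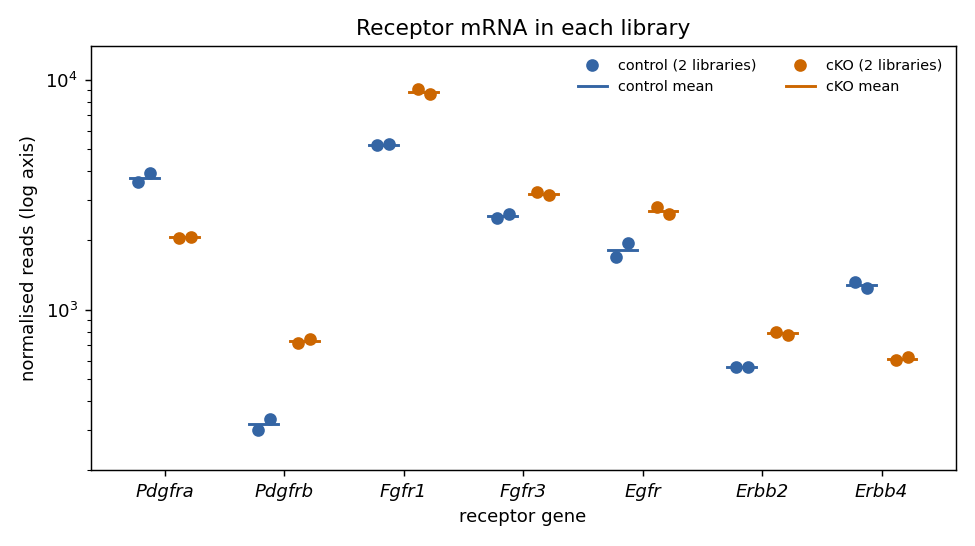
Normalised reads of the 7 listed receptors on a log axis, 1 point per library with the mean of each genotype as a bar (blue, control; orange, cKO; 2 libraries each). Pdgfra and Erbb4 lie lower in the cKO cells, and Pdgfrb, Fgfr1, Fgfr3, Egfr and Erbb2 lie higher.

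The 250 bases before the RefSeq start of 4 receptors (GRCm38.p6) are given to show the start regions of the pair that fell, Pdgfra and Erbb4, beside those of a receptor that rose in every fit, Egfr, and of Erbb2, whose rise was not called in any GC-adjusted fit. Each is 5′ to 3′ on the strand of the gene, with CG dinucleotides in capitals.
Pdgfra, chr5:75152001-75152250, plus strand: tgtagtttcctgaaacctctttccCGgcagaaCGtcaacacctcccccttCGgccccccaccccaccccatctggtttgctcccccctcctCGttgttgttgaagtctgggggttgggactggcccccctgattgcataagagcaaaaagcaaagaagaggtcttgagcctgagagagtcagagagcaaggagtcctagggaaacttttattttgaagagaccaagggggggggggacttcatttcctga
Erbb4, chr1:69108060-69108309, minus strand: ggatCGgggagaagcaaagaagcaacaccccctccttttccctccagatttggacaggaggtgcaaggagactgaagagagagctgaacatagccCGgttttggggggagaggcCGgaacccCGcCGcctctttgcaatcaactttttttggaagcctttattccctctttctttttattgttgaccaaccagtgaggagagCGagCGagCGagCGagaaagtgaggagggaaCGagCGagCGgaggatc
Egfr, chr11:16751953-16752202, plus strand: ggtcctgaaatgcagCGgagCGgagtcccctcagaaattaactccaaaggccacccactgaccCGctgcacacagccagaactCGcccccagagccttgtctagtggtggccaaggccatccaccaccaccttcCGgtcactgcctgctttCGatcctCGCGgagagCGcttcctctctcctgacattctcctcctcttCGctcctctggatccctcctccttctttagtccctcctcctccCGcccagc
Erbb2, chr11:98412234-98412483, plus strand: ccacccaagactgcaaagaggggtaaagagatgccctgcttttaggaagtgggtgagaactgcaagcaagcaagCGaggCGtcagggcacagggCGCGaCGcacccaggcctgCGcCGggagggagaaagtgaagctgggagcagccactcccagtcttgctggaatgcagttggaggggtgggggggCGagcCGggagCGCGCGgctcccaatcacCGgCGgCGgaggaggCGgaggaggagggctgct
The Pdgfra window held 4 CG dinucleotides, fewer than those of Erbb4 (12), Egfr (11) and Erbb2 (16), where the median of 32851 RefSeq windows of the same length was 6. A GC box, GGGCGG or CCGCCC, was present in the window of Egfr and not in those of Pdgfra, Erbb4 and Erbb2, and 32.7% of all windows held one. The letters CAGCTG, an E-box, and ACAAAG or CTTTGT, a SOX core, were in none of these 4 windows and in 13.0% and 16.5% of all windows. Windows of Fgfr3, which are not printed, held 19 and 24 CG dinucleotides and 3 and 2 GC boxes. The first of them held an E-box, and neither held a SOX core. These are descriptions of letters only.

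PDGF receptors went in opposite directions. Pdgfra (ENSMUSG00000029231, chromosome 5, 75152292 to 75198215, plus strand, GRCm38), the receptor that marks oligodendrocyte precursors, had 3585, 3908, 2049 and 2077 normalised reads. Both cKO libraries lay below both controls, and the cKO libraries differed by less than the controls did. The log2 fold change was -0.86 (SE 0.05, limma adjusted p 9.28e-14), and it lay between -0.92 and -0.67 over 16 alternative settings. Beside it, 9 of the 10 listed precursor markers fell (Pdgfra is a member), where 53.3% of the listed genes were lower. Olig1, whose locus carries Cre in the cKO cells, is another member and went from 11990 ± 64.6 to 6844 ± 574. Sox10 fell from 16985 ± 11.2 to 6326 ± 236, while Ptprz1, a receptor phosphatase of precursors, rose from 22467 ± 168 to 24832 ± 500. The falls were not particular to precursor markers, since all 9 listed myelin markers fell too. The part of a change in cell types in the level of Pdgfra was not tested.

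Pdgfrb (ENSMUSG00000024620, chromosome 18, 61045150 to 61085061, plus strand) is the PDGF receptor of pericytes and other mural cells. It had 299, 335, 716 and 748 normalised reads, so both cKO values were more than the controls summed. The log2 fold change was 1.21 (SE 0.09, limma adjusted p 1.78e-11) and the GC-adjusted value was 0.77 (adjusted p 5.35e-08). All 10 listed markers of pericytes and fibroblasts, of 12 on the list, rose in the same libraries, where 46.7% of the listed genes were higher. Their sum was 3552 to 3784 in the controls and 11381 to 11805 in the cKO libraries, 3.16-fold higher. The collagen genes Col3a1 and Col1a2 made up most of this sum in both genotypes. They rose to 5600 ± 237 from 1762 ± 23.3 and to 2215 ± 8.9 from 688 ± 84.7. The members not listed were Rgs5 and Tagln, genes of mural cells, so the sum is not a measure of mural cells alone. The part of pericytes and fibroblasts in the rise of Pdgfrb was not tested. Per kb of gene length, Pdgfra exceeded Pdgfrb 6.55-fold and 6.38-fold in control libraries, against 1.56-fold and 1.52-fold in cKO libraries. This ratio does not depend on the scaling between libraries, but it was not GC-adjusted.

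FGF receptors were both higher, by unequal amounts. Fgfr1 (ENSMUSG00000031565, chromosome 8, 25513654 to 25575718, plus strand), the receptor of FGF2 in many neural cells, had 5191, 5236, 9115 and 8610 normalised reads, the most of any listed receptor in each library. The controls were nearly equal and both cKO libraries lay far above them. The log2 fold change was 0.76 (SE 0.04, limma adjusted p 7.74e-15) and the GC-adjusted value was 0.32 (adjusted p 2.05e-08). Fgfr3 (ENSMUSG00000054252, chromosome 5, 33721674 to 33737068, plus strand), a receptor of astrocytes and of early precursors, had 2508, 2592, 3241 and 3137. Its log2 fold change was 0.32 (SE 0.04, limma adjusted p 9.11e-07), but the GC-adjusted value was -0.14 (adjusted p 0.0094) and the GC-length-adjusted value -0.03 (adjusted p 1.0).

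Among the ERBB family, Egfr and Erbb4 moved apart. Egfr (ENSMUSG00000020122, chromosome 11, 16752203 to 16918158, plus strand), which binds EGF, TGF-alpha and HB-EGF, had 1695, 1945, 2787 and 2602 normalised reads. The controls were wider apart than the cKO libraries, and the groups stayed separate. The log2 fold change was 0.57 (SE 0.06, limma adjusted p 5.53e-09). Adjusted values were larger, 0.94 for GC (adjusted p 2.40e-13) and 1.09 for GC and length (adjusted p 9.12e-17).

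Erbb4 (ENSMUSG00000062209, chromosome 1, 68032186 to 69108059, minus strand), a neuregulin receptor, had 1312, 1235, 604 and 619 normalised reads. Both cKO values were about equal and below both controls. The log2 fold change was -1.06 (SE 0.07, limma adjusted p 1.19e-12), the GC-adjusted value -0.45 (adjusted p 2.85e-06) and the GC-length-adjusted value -0.28 (adjusted p 9.91e-04). Erbb2 (ENSMUSG00000062312, chromosome 11, 98412470 to 98437716, plus strand) has no known ligand and signals as the partner of the other ERBB receptors. It had 561, 562, 800 and 774 normalised reads, and its log2 fold change was 0.49 (SE 0.07, limma adjusted p 3.77e-06). The GC-adjusted value was 0.01 (adjusted p 1.0). Per kb, Egfr stood at 1.41 and 1.72 times Erbb4 in control libraries and at 5.03 and 4.58 times Erbb4 in cKO libraries, and Erbb2 at 1.01 and 1.08 times and at 3.14 and 2.96 times.

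Astrocyte markers moved in the same libraries as Fgfr1, Fgfr3 and Egfr, which astrocytes also express. Of 11 listed markers 9 rose and 2 fell (median log2 fold change 0.63). After GC adjustment 10 were higher and 1 lower (median 0.40), and Aqp4 turned from -0.16 to 0.40. The summed level of the astrocyte markers was 1.49-fold higher. Beside these counts and those of the markers below, 46.7% of the listed genes were higher and 53.3% lower. The shares were 28.3% and 40.3% after GC adjustment, and 28.2% and 40.5% after GC and length adjustment. Gfap, the astrocyte filament gene, went from 351796 ± 445 to 555415 ± 2590, and Slc1a3, a glutamate transporter, from 40100 ± 38.3 to 53156 ± 16.1. Neuron markers, which matter for Erbb4 since some interneurons express it, had 7 of 9 listed members higher and 2 lower, with sums of 18585 to 18901 in the controls and 17482 to 17665 in the cKO libraries. Their median log2 fold change was 0.62 although the sum was lower, since Map2 and Dcx, the highest members, were lower. Neither is particular to interneurons. Gad1 and Gad2, the interneuron genes of the list, were among the 7 higher, with a log2 fold change of 0.36 for Gad2, whereas Erbb4 was lower. The GC-adjusted value of Map2 was -0.42, but that of Dcx turned from -0.40 to 0.21 (limma adjusted p 2.51e-04), and 8 neuron markers were then higher and 1 lower. The 7 listed microglia markers were called higher, with sums of 2958 to 3052 and 4328 to 4593, but 5 were after GC adjustment and 2 after GC and length adjustment (median log2 fold change 0.70, 0.32 and 0.14). Of 4 listed endothelial markers 3 were higher and 1 lower, also in both adjusted fits. The lower one was Kdr, the highest of the 4 in mean level, which went from 180 ± 26.2 to 94.5 ± 9.0. The sums of the 4 were 192 to 229 in the controls and 248 to 250 in the cKO libraries. The part of these cell types in the receptor values was not tested.

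Compared per length, Fgfr1 was the most abundant listed receptor in both genotypes, and the places below it changed. In the controls Fgfr1 stood at 528 ± 3.2 normalised reads per kb of gene length. Pdgfra (374 ± 22.8) and Fgfr3 (356 ± 8.3) came next and overlapped. Egfr (161 ± 15.6) followed, then Erbb2 (108 ± 0.14) and Erbb4 (103 ± 4.4), whose means differed by about the spread of Erbb4, and Pdgfrb (57.9 ± 4.6) came last.

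In the cKO cells the order per kb was Fgfr1 (897 ± 36.1), Fgfr3 (446 ± 10.2), Egfr (238 ± 11.5), Pdgfra (206 ± 1.9), Erbb2 (151 ± 3.6), Pdgfrb (134 ± 4.1) and Erbb4 (49.5 ± 0.87). No neighbours in this order overlapped. Pdgfra went from place 2 to place 4 and Pdgfrb left the last place to Erbb4. Of the summed level of the 7 receptors, Pdgfra made up 21.7% and 22.6% in control libraries, against 9.47% and 9.95% in cKO libraries, whereas Fgfr1 made up 31.8% and 30.8% and then 42.7% and 41.9%. The summed level was 1687 ± 50.3 in the controls and 2121 ± 54.6 per kb in the cKO cells. With the length of the longest transcript in place of the length column, Fgfr3 passed Pdgfra in the controls and Pdgfra passed Egfr in the cKO cells.

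**Figure D2:**
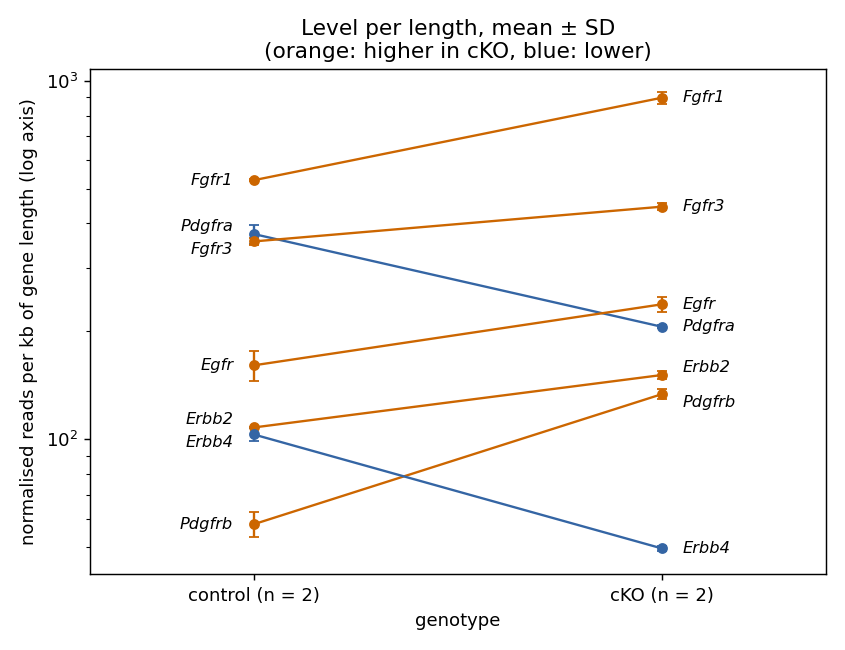
Normalised reads per kb of gene length on a log axis for the 7 listed receptors, as mean ± SD of 2 libraries in control and in cKO cells (orange lines, higher in cKO; blue lines, lower). The lines of Pdgfra and Egfr cross, as do those of Erbb4 and Pdgfrb, while Fgfr1 stays highest at 528 and 897 per kb.

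Apart from Egfr, the receptors that rose had a higher GC content than those that fell, but the size of the rise did not increase with GC content. Across the 6934 listed genes with a GC value, GC content of the longest transcript and log2 fold change had a Spearman rho of 0.51 (genes of the same 4 libraries, which are not independent replicates). Of genes below 45% GC, 10.9% were higher in the cKO cells, of those from 45 to 50% GC 38.3%, of those from 50 to 55% GC 68.1% and of those above 55% GC 79.1%. Erbb4 had 40.6% GC and Pdgfra 48.1%, and both fell. Pdgfrb had 54.9%, Fgfr1 55.4%, Fgfr3 56.4% and Erbb2 57.3%, and all 4 were higher. Egfr, at 44.4% GC, rose within the band in which 10.9% of genes did. With the GC trend removed, 3 receptors were called higher (Egfr, Pdgfrb and Fgfr1) and 3 lower (Pdgfra, Erbb4 and Fgfr3), where 28.3% and 40.3% of the genes were (68.5% in either direction). Without trends in GC content and length, Fgfr3 was not called, and 28.2% of the genes were higher and 40.5% lower (68.7% in all). With the GC trend removed and the values centred on 0, Fgfr3 and Erbb2 were again not called, beside 33.0% of genes higher and 34.6% lower (67.6% in all). The trend was fitted on genes already called different, so its size over all expressed genes is not known. GC-adjusted values and calls rest on this trend. Whether the trend is technical or part of the genotype's effect was not tested.

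**Figure D3:**
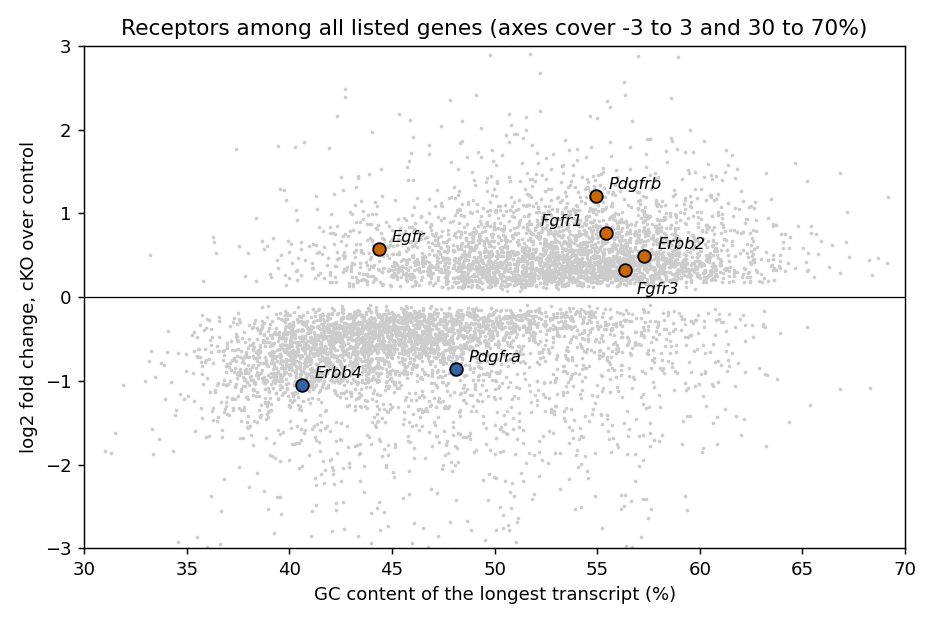
GC content of the longest transcript in percent against the limma log2 fold change (cKO over control) for the listed genes (grey; 37 lie outside the axes) and the 7 receptors (orange, higher in cKO; blue, lower). Genes rich in GC lie mostly above 0, with Fgfr1, Fgfr3, Erbb2 and Pdgfrb among them, and Egfr at 44.4% GC stands above most genes of its GC content.

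**Figure D4:**
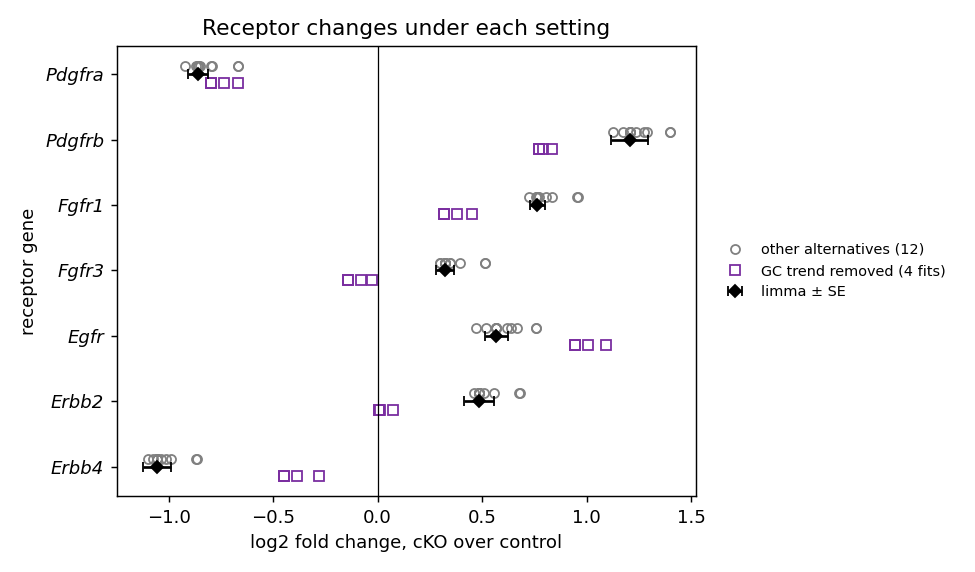
Log2 fold change of each listed receptor (cKO over control) in limma (black, ± SE), under 12 other alternatives (grey circles) and under 4 fits with a GC trend removed (purple squares). Pdgfra, Pdgfrb, Fgfr1, Egfr and Erbb4 stay on 1 side of 0, Fgfr3 crosses it to -0.14 and Erbb2 comes to 0.01.

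Of 25 ligands 6 were listed, where 40.0% of all genes were, with 3 higher and 3 lower, where 46.7% and 53.3% of the listed genes were. Their median log2 fold change was -0.02, and -0.22 over all listed genes. After GC adjustment 3 ligands were higher and 2 lower, beside 28.3% and 40.3% of the listed genes. Tgfa, whose product binds Egfr, fell most, with 3577, 3684, 1471 and 1645 normalised reads (log2 fold change -1.22, SE 0.05, limma adjusted p 5.60e-16). Pdgfa, which encodes the main ligand of Pdgfra, had 1071, 1016, 670 and 743, 1.48-fold lower (log2 fold change -0.56, GC-adjusted -0.88). The Pdgfra ligand and its receptor were thus both lower in both cKO libraries, whereas Tgfa was lower and Egfr higher.

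Hbegf, which encodes another ligand of Egfr and Erbb4, rose 1.50-fold (log2 fold change 0.58), and the GC-length-adjusted value was not called (0.16, adjusted p 0.221). Fgf1 rose from 800 ± 33.4 to 1106 ± 3.7 (log2 fold change 0.47). Fgf2, a growth factor for precursors, was 1.41-fold lower (log2 fold change -0.50), but its value was 0.01 (adjusted p 1.0) with the GC trend removed. Igf1, the ligand of Igf1r, rose from 192 ± 4.0 to 278 ± 18.5 (log2 fold change 0.53, GC-adjusted 1.28).

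Genes whose products hold growth factors outside the cell or present them to receptors had 14 of 24 members listed, beside 40.0% of all genes. Of these 13 rose and 1 fell (median log2 fold change 0.63), where 46.7% of the listed genes were higher and 53.3% lower (median -0.22). After GC adjustment 8 were higher and 2 lower (median 0.29), beside 28.3% and 40.3% of the listed genes (median -0.07). Gpc1 is among those lower, turned from 0.23 to -0.27. Igfbp4, which binds IGFs, rose from 650 ± 30.4 to 1782 ± 43.3 (log2 fold change 1.45, limma adjusted p 6.77e-16). Igfbp7, a secreted relative, rose 2.15-fold (log2 fold change 1.10, GC-adjusted 0.61). Gpc4, a heparan sulfate proteoglycan of the cell surface, rose 2.05-fold (log2 fold change 1.04, GC-length-adjusted 0.69). Gpc2, a glypican of young neurons, fell from 66.1 ± 8.7 to 24.0 ± 8.8. Fgfrl1, an FGF receptor without the kinase domain, rose 1.37-fold by 0.45 on the log2 scale, but the GC-adjusted value was -0.03 (adjusted p 1.0).

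Adaptors and first effectors of the receptors had 23 of 34 members listed, beside 40.0% of all genes. Of these 6 rose and 17 fell (median log2 fold change -0.53), where 53.3% of the listed genes were lower (median -0.22). After GC adjustment 2 were higher and 16 lower (median -0.30), beside 28.3% and 40.3% of the listed genes (median -0.07). Among the 16 are Irs2 and Pik3r2, which turned from 0.17 to -0.30 and from 0.18 to -0.34. The falls of Frs2, Sos1 and Pik3ca were no longer called. Pik3r3, a regulatory subunit of PI3K, had 9077, 9419, 1635 and 1594 normalised reads. Its mean was 5.73-fold lower, and limma gave a log2 fold change of -2.52 (SE 0.04, adjusted p 4.15e-24). Plcg2, a phospholipase C, fell from 2727 ± 25.3 to 611 ± 0.33, 4.46-fold. Fyn, a SRC-family kinase of myelinating cells, fell from 23937 ± 57.1 to 10706 ± 179, 2.24-fold. These 3 falls were as large or nearly so with the GC trend removed (log2 fold changes -2.14, -2.58 and -1.22).

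Members that rose were led by Grb10, an adaptor that dampens insulin and IGF receptors (1.96-fold, log2 fold change 0.97), and Shc1, an adaptor of the RAS pathway (1.64-fold, log2 fold change 0.72, GC-adjusted 0.34). Src rose 1.35-fold or 0.44 on the log2 scale, and the GC-adjusted value was -0.06 (adjusted p 0.685). With relative log expression factors, which were estimated on the listed genes only, the falls of Frs2, Gab2 and Crkl were no longer called. Pik3r3, Plcg2 and Fyn moved in the libraries in which all 10 markers of newly formed oligodendrocytes and all 9 listed myelin markers fell. Of the listed genes 53.3% were lower. The sums of these markers were 3.28-fold and 4.89-fold lower. The part of that in the adaptor values was not tested.

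Feedback inhibitors of receptor signalling were mixed, with 12 of 20 listed, where 40.0% of all genes were. Of these 6 were higher and 6 lower (median log2 fold change 0.05), beside 46.7% and 53.3% of the listed genes. Of the 11 with a GC value, 4 were higher and 2 lower after GC adjustment, beside 28.3% and 40.3% of the listed genes. Spred1 is among the 4, turned from -0.43 to 0.13 on the log2 scale. After GC and length adjustment 3 were higher and 2 lower, beside 28.2% and 40.5% of the listed genes. Dusp6, an ERK phosphatase that is itself induced by ERK signalling, had 473, 513, 694 and 680 normalised reads (log2 fold change 0.48, limma adjusted p 1.35e-05). Dusp4, its relative, rose 1.77-fold (log2 fold change 0.82), and the GC-length-adjusted value was not called (0.23, adjusted p 0.0796). Spry4, an inhibitor of RAS activation, rose 1.35-fold (log2 fold change 0.43), and the GC-adjusted value was not called (0.18, adjusted p 0.292).

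Among the inhibitors that were lower, Spry3 fell from 234 ± 8.7 to 94.1 ± 5.5, and no GC value was found for it. Lrig1, Lrig2 and Lrig3 encode membrane proteins, of which Lrig1 is known to restrain ERBB receptors. Lrig3 fell 2.02-fold (log2 fold change -1.01) and Lrig2 1.47-fold (log2 fold change -0.56, GC-adjusted -0.22, not called at adjusted p 0.113). Lrig1, with the highest count of the 3, rose from 8954 ± 3.8 to 11468 ± 350 (log2 fold change 0.36), and the GC-adjusted value was -0.08 (adjusted p 0.0504).

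Genes that ERK signalling is known to induce were listed for 3 of 10 members, beside 40.0% of all genes. All 3 were higher, as were 46.7% of the listed genes. After GC adjustment 1 of them was called higher, beside 28.3% of the listed genes. Ccnd1, which encodes cyclin D1, rose from 2291 ± 14.4 to 3017 ± 131 (log2 fold change 0.40, GC-adjusted 0.17 at adjusted p 0.00348). Etv5, an ETS transcription factor, and Ier3, an early response gene, rose by 0.37 and 0.58 on the log2 scale. Neither was called with the GC trend removed (0.08, adjusted p 0.311, and 0.16, adjusted p 0.298).

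**Figure D5:**
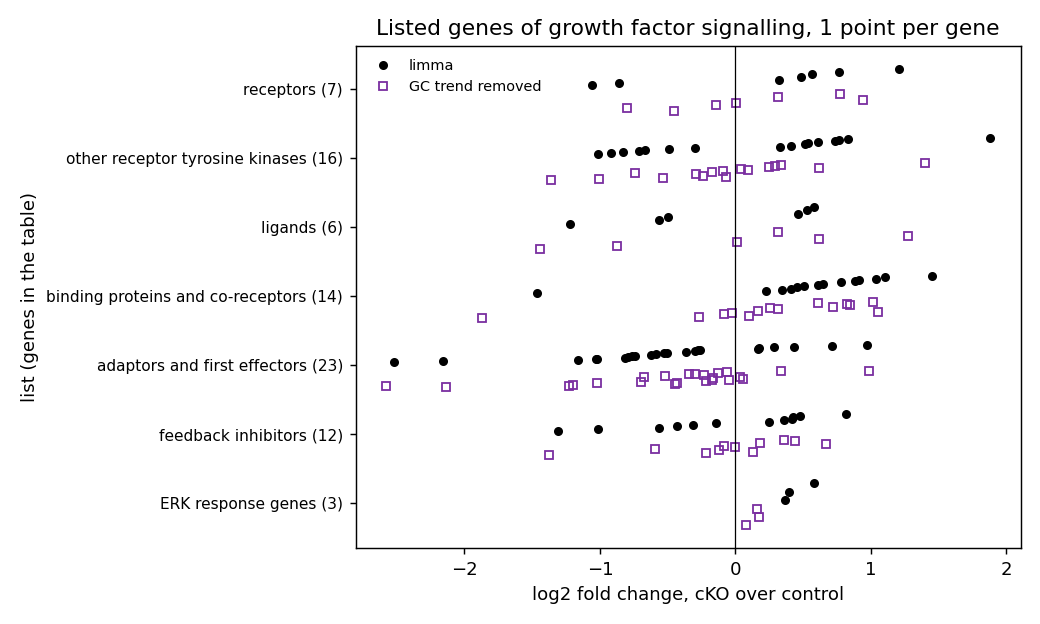
Log2 fold change (cKO over control) of each listed gene of the receptors and of 6 lists of growth factor signalling, in limma (black) and with the GC trend removed (purple), 1 point per gene, with the number of listed genes in parentheses. Of the listed genes in limma, 13 of 14 binding proteins lie above 0 and 17 of 23 adaptors below, while receptors, ligands and feedback inhibitors fall on both sides.

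Other receptor tyrosine kinases numbered 44, of which 16 were listed, beside 40.0% of all genes. Of these 9 were higher and 7 lower, beside 46.7% and 53.3% of the listed genes. Their median log2 fold change was 0.37, and 0.49 for the 7 receptors above. After GC adjustment 3 were higher and 7 lower, beside 28.3% and 40.3% of the listed genes. Ddr1 is among those lower, turned from 0.41 to -0.09 on the log2 scale. The GC-adjusted median was -0.08, and it was 0.01 for the 7 receptors. Ephb1, an ephrin receptor, fell from 4308 ± 65.9 to 2135 ± 5.2 (log2 fold change -1.01). Epha4, another ephrin receptor, fell 1.78-fold (log2 fold change -0.83, GC-adjusted -0.54). Kdr, a VEGF receptor that lies 735 kb beyond the end of Pdgfra on chromosome 5, fell from 180 ± 26.2 to 94.5 ± 9.0 (log2 fold change -0.92). Among those higher, Tie1, an endothelial receptor, went from 5.5 ± 0.64 to 23.3 ± 4.0, while the rises of Ror2 and Epha2 (log2 fold changes 0.83 and 0.77) were not called with the GC trend removed (adjusted p 0.169 and 0.228).

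The listed genes most like Pdgfra over the 4 libraries were Cnot6l, Ranbp2, Zfp125, Shisa9 and Senp8. Likeness was the root mean square distance between log2 values centred on each gene's mean, and it ran from 0.021 for Cnot6l to 0.025 for Senp8. Nearest to Fgfr1 were Bicc1 and Ldhb, to Egfr Scara3 and Nr2e1, to Erbb4 Luc7l3 and Atp13a3, and to Pdgfrb Calb2 and Slc27a3. Hmg20b and S100a16 were nearest to Fgfr3, and Lmna and Dtx4 to Erbb2. With 4 libraries this measure mostly orders genes by their fold change. Pdgfra lay among the lowest 16.0% of listed genes by log2 fold change and Erbb4 among the lowest 10.4%. Pdgfrb had a higher value than 96.8% of the listed genes or equalled it, Fgfr1 89.0%, Egfr 81.9%, Erbb2 77.3% and Fgfr3 65.5%.

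Some exons of the receptors overlap other genes in GENCODE M21. The gene G630022F23Rik, on the opposite strand, shares 998 of the 7158 exon bases of Fgfr3. Gm42802 and Gm42803, opposite to Pdgfra, share 456 and 166 of its 10024 bases, and Gm16159 shares 164 of the 9875 bases of Fgfr1. The strand setting of the counting was not given in the sources used here, so reads of these stretches cannot be assigned to 1 gene.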

How the data were processed

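Messenger RNA of the enriched cultures was measured in 2 control and 2 cKO libraries. Per the file headers, the authors deposited size-factor-scaled read counts as a signal for each gene, genotype means, a log2 fold change, a p-value with its adjusted value and gene length. The submitters' processing notes name DESeq2, mm10 and GRCm38. The aligner and the counting tool are not given in the sources used here. Columns of other samples numbered 0.

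Every listed gene has an adjusted p-value under 0.05 in the authors' deposited table (largest 0.0499). Adjusted p times rank over p gave 17347 genes behind their adjustment. Whole reads came out for 100% of the 6940 values of each library within 0.01 read (1 read was worth 1.0, 1.0181, 0.8165 and 1.1866 in control 1, control 2, cKO 1 and cKO 2). On those reads edgeR called 3244 genes higher and 3597 lower, and DESeq2 3247 and 2521.

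Genotypes were compared over all 6940 listed genes with limma 3.58.1 (R 4.3.3) on log2(value + 1), a scale that understates changes of low genes, with a mean-variance trend and genotype as the only term. The filter was a value of 1 or more in 2 libraries. Benjamini-Hochberg adjustment took 17347 tests, and an adjusted p under 0.05 was a call. The variance was pooled over genes selected for a difference, so p-values may be too small. Alternatives used a pseudocount of 0.5, other filters, edgeR 4.0.16 and DESeq2 1.42.0 on recovered reads, relative log expression factors, adjustment over listed genes only, a replicate block, left-out libraries, and removal of trends with GC content (longest GENCODE M21 transcript, 6934 genes) or length. The code was tested on simulated data. The length column equalled the exon union of GENCODE M21 in all 7 receptors.

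Members and lists were chosen with earlier results of these data known. Named genes were every listed receptor, the 3 largest rises and falls of each signalling list, inhibitors or ligands of a receptor, the highest markers of each cell type list, and the genes nearest in pattern. The distance of Kdr from Pdgfra was chosen after its value was seen. So were the members named for a lost call (Frs2, Gab2, Crkl, Sos1, Pik3ca, Spred2, Irs2, Ptpn1 and Gad2). The same holds for Olig1, for Gad1 and for the members named for a turned direction (Irs2, Pik3r2, Gpc1, Spred1, Ddr1 and Aqp4).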

Additional observations from a re-analysis of the deposited data

How the results depend on the processing

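Pdgfra, Pdgfrb, Fgfr1, Egfr and Erbb4 kept their direction and their call in all 16 alternatives. With the GC trend removed 1960 listed genes were called higher, with GC content and length removed 1953, and with the replicate block and the GC trend removed 1955, against 3244. Under each of these, and with the GC trend removed and centred on 0 (chosen after seeing the data, 2402 genes lower against 3696), 3 receptors were called higher instead of 5. The log2 fold change of Fgfr3 was then -0.14, -0.028, -0.14 and -0.080 in that order, and that of Erbb2 was 0.01, 0.01, 0.01 and 0.07, not called. The cause was not tested. The control level of Fgfr1 per kb was 9.12 times that of Pdgfrb, and 17.7 times with the longest transcript. Relative log expression factors, estimated on the listed genes only, raised the median log2 fold change of these genes (-0.22) by 0.191. Such factors bring the median of the genes they are estimated on towards 0, so this shift follows from the method. The balance of calls turned with it (3250 higher, 2914 lower, against 3244 and 3696). It also turned with DESeq2 (3247 and 2521), whose factors came from the listed genes too. With a replicate block 3242 genes were higher and 3696 lower. The difference of replicate 1 and replicate 2 was hardly correlated between the genotypes over the listed genes (0.01). With 4 libraries this cannot tell whether the numbers in the titles pair them. Without the GC correction the block changed no receptor call. Leaving out a library gave Pdgfra -0.92 to -0.80, Erbb4 -1.10 to -1.01 and Egfr 0.47 to 0.67. Calls of list members lost that way were Spred2 without control 1, Irs2 without control 2, Ptpn1 without control 2 and without cKO 2, and Gad2 without cKO 1. Depth limits the low genes, such as Tie1 at 5 to 26 normalised reads.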
